A study of Mus musculus with 16 samples.

Results

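Choroid plexus genes were followed through 16 mouse rhabdoid tumors as a set of 9 genes: Ttr, Kl, Folr1, Kcnj13, Kcne2, Aqp1, Clic6, Prlr and Enpp2. They were taken by name from the count table, which lists 24982 genes, and from the TPM table, and each was found in both. The set was selected on these TPM and count values, as genes high in the tumors of mice R26P115 and 29048 compared with the other 14. The levels of these tumors are given as a description, with no test of them against the other 14. A criterion for single far values within each location is likewise read as a description for them. The choroid plexus is a folded epithelium in the brain ventricles that makes the cerebrospinal fluid. Its cells move ions and water from the blood to the ventricle, carry folate and hormones across, secrete carrier proteins and bear motile cilia. They arise from the roof plate at the dorsal midline of the neural tube, and the transcription factor Otx2 is known to be needed for their development.

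Each tumor came from a different mouse of genotype Smarcb1flox/flox;R26-CreERT2, on a mixed background, in which tamoxifen given to the embryo activates a ubiquitous Cre that deletes the floxed Smarcb1. The intra-CNS group held 5 tumors of the brain parenchyma, which the study calls Shh, all induced at embryonic day (E) 6 and taken at 30 to 180 days of age. The 11 extra-CNS tumors, which the study calls Myc, comprised 6 intracranial tumors outside the parenchyma, taken at 52 to 170 days (4 induced at E8, 1 at E7, 1 at E6), and 5 extracranial tumors, taken at 80 to 210 days (4 induced at E8, 1 at E6). The tumor of R26P115 was intracranial extra-CNS, induced at E8 and taken at 115 days, and that of 29048 was intra-CNS, induced at E6 and taken at 45 days. The floxed alleles and the Cre were shared by every group, and neither tissue of mice without the deletion nor normal choroid plexus was analysed here. The study cut pieces of tissue holding the tumor from frozen brain sections with a scalpel, so the pieces can hold neighbouring tissue. In such bulk RNA, more cells of a type and more RNA per cell cannot be told apart.

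Total counts ran from 17889968 to 110177889 per tumor, and a detection floor of 3 counts corresponded to 0.0272 to 0.168 CPM, that is, counts scaled to the library total. The libraries of R26P115 (26526215 counts) and 29048 (33441126 counts) lay within this range. No sequencing batch is given in the labels, but mice were named in 2 ways, 11 by a number and 5 with the prefix R26P. Smarcb1 (chromosome 10, from 75896769 to 75921617, minus strand), the deleted gene, was read over its whole length and was at 58.1 TPM in 29048 and 43.7 TPM in R26P115, above each of the other 14 tumors (3.99 to 26.1 TPM). The tumor of 29048 also had the highest summed levels of neuronal, oligodendrocyte and astrocyte genes. The tumor of 43990A is extracranial in the labels and was analysed so, while the study's sample table has it as intracranial extra-CNS.

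Levels are given in TPM, a share of a tumor's transcripts scaled by gene length, which allows genes to be compared. The R26P115 tumor had the highest level of all 9 genes among the 16 tumors, and the 29048 tumor had the second highest of 8, the exception being Aqp1. Summed over the 9 genes, the level was 254215 TPM in R26P115, which is 25.4% of all TPM of that tumor, and 5474 TPM in 29048. In the other 14 tumors the sum ran from 6.45 TPM in 43992A to 199.6 TPM in 38594A. Of all 21841 genes with a count and a TPM value, R26P115 was highest and 29048 second for 611 (2.80%). Both tumors lay above each of the other 14 for 8 of the 9 genes and for 4.10% of all genes. The choice of the 9 genes rests on these levels, so nothing is read from these shares.

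**Figure D1:**
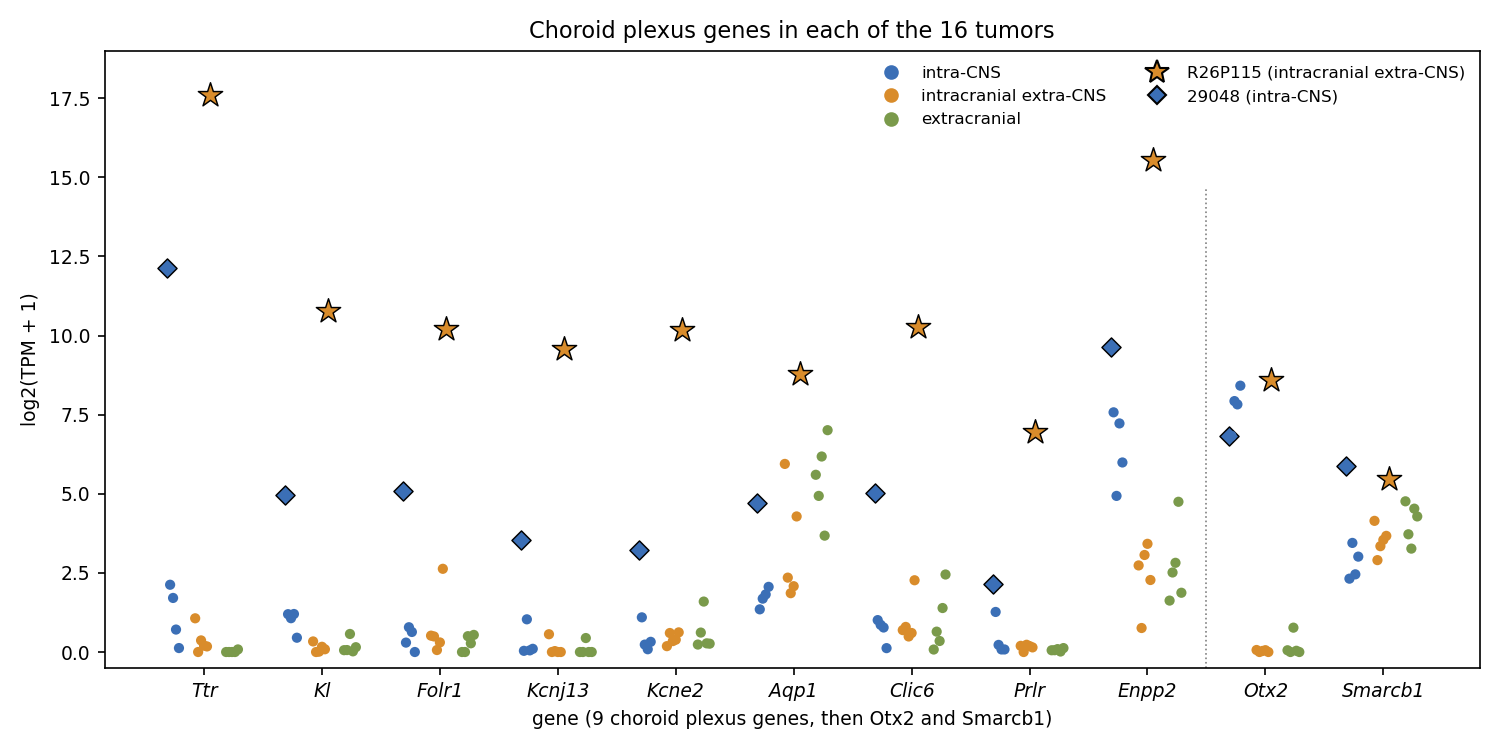
Level of each choroid plexus gene, and of Otx2 and Smarcb1, as log2(TPM + 1) in each of the 16 tumors, 1 point per tumor, coloured by location and spread sideways within a gene for legibility. The star (R26P115) is the highest point for all 9 choroid plexus genes and the diamond (29048) the second highest for 8 of them, while Otx2 is at 111.5 TPM or more in the 5 intra-CNS tumors and R26P115.

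The secreted proteins of the set had the highest levels. Ttr (chromosome 18 of GRCm38, from 20665280 to 20674321) encodes transthyretin, the carrier of thyroid hormone that the choroid plexus releases into the cerebrospinal fluid. It was at 199516 TPM in R26P115, the first of all genes in that tumor, and its 2675851 counts were 10.09% of the library (95% Wilson interval 10.08 to 10.10). In the intra-CNS tumors Ttr was at 4535 TPM in 29048, 3.36 TPM in 38594A, 2.27 TPM in 29050A, 0.635 TPM in R26P98 and 0.0906 TPM in R26P87. The 5 other intracranial extra-CNS tumors lay between 0 and 1.09 TPM, and the 5 extracranial tumors between 0 and 0.0582 TPM, where 4 of them had no Ttr count. Ttr thus spanned from no count to a level above that of any other gene, and 8 of the 14 tumors other than R26P115 and 29048 had no more than 3 counts. The level in R26P115 was 44.0 times that in 29048.

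Enpp2 (chromosome 15, from 54838901 to 54952892, minus strand) encodes autotaxin, a secreted enzyme that produces lysophosphatidic acid. It was at 48046 TPM in R26P115, the second of all genes there. In the intra-CNS tumors it was at 797.4 TPM in 29048, 189.6 TPM in 38594A, 148.4 TPM in R26P98, 62.5 TPM in R26P87 and 29.5 TPM in 29050A. The other 10 extra-CNS tumors ranged from 0.692 to 25.9 TPM with a median of 5.19 TPM. Unlike Ttr, Enpp2 was above the floor in all 16 tumors. With R26P115 set aside, each intra-CNS tumor lay above each extra-CNS tumor on TPM, though not on TMM-normalized CPM. Enpp2 overlaps the noncoding Gm26684 on the opposite strand, which was at 39.7 TPM in R26P115 and at most 0.781 TPM in the other 15 tumors.

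Of the genes for uptake and hormone response, Kl (chromosome 5, from 150952607 to 150993817) encodes klotho, a coreceptor for fibroblast growth factor 23 that the choroid plexus and the kidney are known to make. Kl was at 1766 TPM in R26P115 and 29.9 TPM in 29048, and the other 14 tumors lay between 0 and 1.30 TPM with a median of 0.116 TPM. Among these 14, the intra-CNS tumors R26P98 (1.30 TPM), 38594A (1.29 TPM) and 29050A (1.10 TPM) were above each extra-CNS tumor, while R26P87 (0.368 TPM) lay below the extracranial tumor of 43990A (0.485 TPM). Folr1 (chromosome 7, from 101858331 to 101870788, minus strand) encodes the folate receptor through which folate enters the cerebrospinal fluid. It was at 1178 TPM in R26P115, 32.8 TPM in 29048 and between 0 and 5.19 TPM in the other 14 tumors (median 0.320 TPM), with the highest of these in the intracranial extra-CNS tumor of R26P170. Prlr (chromosome 15, from 10177238 to 10349180) encodes the prolactin receptor. It was at 123.8 TPM in R26P115, the lowest of the 9 genes there, at 3.46 TPM in 29048 and at most 1.40 TPM in the other 14 tumors.

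The channel genes are those through which the epithelium moves ions and water. Kcnj13 (chromosome 1, from 87386363 to 87394729, minus strand) encodes the inward rectifier potassium channel Kir7.1, and was at 759.5 TPM in R26P115 and 10.5 TPM in 29048. In 11 of the other 14 tumors it had no more than 3 counts, and the highest of these tumors, the intra-CNS tumor of 29050A, reached 1.05 TPM. Kcne2 (chromosome 16, from 92292389 to 92298129) encodes a regulatory subunit of potassium channels. It was at 1160 TPM in R26P115, 8.44 TPM in 29048 and at most 2.02 TPM in the other 14 tumors, and its level in R26P115 was 137 times that in 29048, the widest such gap of the 9 genes. Clic6 (chromosome 16, from 92485736 to 92541243), a member of the family of chloride intracellular channel proteins, was at 1227 TPM in R26P115, 31.4 TPM in 29048 and 0.0560 to 4.46 TPM in the other 14 tumors. Folr1 and Kcnj13 overlap Anapc15 and Gigyf2 on the opposite strand, which were at 22.6 and 40.3 TPM in R26P115. The strand setting of the counting was not stated.

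Aqp1 (chromosome 6, from 55336432 to 55348555) encodes the water channel aquaporin 1, which red blood cells and the endothelium of vessels outside the brain also make. It was at 439.8 TPM in R26P115, 3.44 times the highest of the other 14 tumors, against 88.1 to 59312 times for the other 8 genes. The extracranial tumors had 11.8, 29.5, 47.5, 71.4 and 127.9 TPM of Aqp1. The other 5 intracranial extra-CNS tumors had 2.63, 3.23, 4.10, 18.5 and 60.5 TPM, and the intra-CNS tumors had 1.55, 2.22, 2.53, 3.17 and, in 29048, 24.9 TPM. Aqp1 was thus present in tumors of every location, and 29048 had rank 7 of the 16. In the same R26P115 tumor the endothelial list of 7 genes summed to 181 TPM, within the 55.7 to 454 TPM of the 14 tumors. Of these 7 genes, 1 was highest of the 16 tumors in R26P115 on TPM and 4 on TMM-normalized CPM.

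In both tumors Ttr and Enpp2 had the highest and Prlr the lowest level of the 9 genes. Across the 9 genes, the level in 29048 was 0.728% to 5.66% of that in R26P115, with a median of 2.27%. On TMM-normalized CPM the level in R26P115 was 29.5 to 229 times that in 29048 (median 73.4), against 17.7 to 137 times (median 44.0) on TPM. The same change of scale moved the median of 14794 other genes in R26P115, relative to the median of the 14 tumors, from -0.28 to -0.04 on the log2 scale, and in 29048 from 0.36 to -0.01. Both R26P115 and 29048 were over 4-fold above the highest of the 14 tumors, on the log2(TPM + 1) scale, for 6 of the 9 genes. Over all 21841 genes this was so for 39 (0.179%), a share from which nothing is read because these tumors chose the genes. Just inside that limit was Enpp2, with a log2 difference of 2.07 between 29048 and the highest of the 14, and just outside was Kcne2 with 1.65.

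Promoter sequences of 5 of the 9 genes (Kl, Kcnj13, Kcne2, Aqp1 and Prlr, 8 start sites in all) were found in RefSeq (GRCm38.p6). Shown are the 250 bases before the start site of the 3 of these genes whose level in R26P115 exceeded that of the 14 other tumors by most, and of the 1 Prlr start site with a forkhead match. They lie at chr5:150952357-150952606 (Kl, plus strand), chr1:87394730-87394979 (Kcnj13, minus strand), chr16:92292139-92292388 (Kcne2, plus strand) and chr15:10223656-10223905 (Prlr, plus strand), each written 5′ to 3′ along the gene. Capitals mark a match to TATAAA, the element bound by the TATA-binding protein, in Kcnj13, and a match to GTAAACA, bound by forkhead factors, in Prlr, where it lies on the other strand.
Kl: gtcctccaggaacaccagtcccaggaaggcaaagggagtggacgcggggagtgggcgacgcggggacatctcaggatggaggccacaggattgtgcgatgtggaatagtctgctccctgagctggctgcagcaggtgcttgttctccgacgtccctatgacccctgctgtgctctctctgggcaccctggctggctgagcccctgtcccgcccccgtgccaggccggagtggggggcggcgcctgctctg
Kcnj13: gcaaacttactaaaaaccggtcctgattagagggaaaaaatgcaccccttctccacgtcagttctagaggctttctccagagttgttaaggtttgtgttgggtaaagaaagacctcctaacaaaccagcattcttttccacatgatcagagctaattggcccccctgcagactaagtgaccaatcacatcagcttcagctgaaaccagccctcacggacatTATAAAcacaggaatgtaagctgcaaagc
Kcne2: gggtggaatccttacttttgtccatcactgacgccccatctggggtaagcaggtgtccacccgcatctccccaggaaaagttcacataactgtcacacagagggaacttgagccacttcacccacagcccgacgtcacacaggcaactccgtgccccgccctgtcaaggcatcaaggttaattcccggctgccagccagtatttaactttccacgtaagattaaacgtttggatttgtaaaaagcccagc
Prlr: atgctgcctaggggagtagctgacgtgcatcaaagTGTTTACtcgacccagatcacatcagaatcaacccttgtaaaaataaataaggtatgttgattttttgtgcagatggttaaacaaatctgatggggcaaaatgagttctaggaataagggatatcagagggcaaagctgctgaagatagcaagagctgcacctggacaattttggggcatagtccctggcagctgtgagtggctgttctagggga
Each motif was searched on both strands of the 8 sequences, and no sequence held more than 1 of the 3 motifs. TAATCC, the core of sites that OTX2 binds, was in 0 of the 8, against 6.25% of 32851 promoters of the same length. GTAAACA was in 1 of the 8 (3.17% of all promoters), and TATAAA in 1 of the 8, beginning 29 bases before the Kcnj13 start site (12.4% of all promoters). The GC content of the 8 sequences ran from 32.8% to 66.8%, around a median of 52.4% over all promoters.

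Otx2 (chromosome 14, from 48657677 to 48673819, minus strand), the transcription factor of the developing forebrain and choroid plexus, was at 386.8 TPM in R26P115. In the intra-CNS tumors it was at 111.5 TPM in 29048, 112.7 TPM in 38594A, 225.7 TPM in R26P98, 242.8 TPM in 29050A and 340.6 TPM in R26P87. In the other 10 extra-CNS tumors it ranged from 0 to 0.704 TPM, and 9 of them had no more than 3 counts. R26P115 was thus the 1 extra-CNS tumor with Otx2 at the level of the intra-CNS tumors. Among the 5 intra-CNS tumors 29048 and 38594A had the lowest Otx2. They were nearly equal on TPM, and on TMM-normalized CPM they were at 95.3 and 95.1, in the other order. In 29048, 9 of 9 choroid plexus genes were at their highest among these 5 tumors. Smarcb1 was highest of the 16 tumors in 29048 and R26P115, at 58.1 and 43.7 TPM. Whether tissue without the deletion contributes to the choroid plexus genes in these tumors was not tested.

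The first comparison asked whether the genes differed between tumors within the brain parenchyma and tumors outside it. The fit of all 16 tumors includes R26P115 and 29048, whose levels chose the genes, so its values for the 9 genes are a description from which nothing is read. On the log2(TPM + 1) scale Aqp1 was at 2.32 ± 1.35 (SD, n = 5) in the intra-CNS group against 4.22 ± 2.74 (SD, n = 6) in intracranial extra-CNS and 5.48 ± 1.26 (SD, n = 5) in extracranial tumors. In edgeR's quasi-likelihood test the log2 fold change of intra-CNS over extra-CNS tumors was -4.06 ± 1.36 (SE), with a Benjamini-Hochberg adjusted p of 0.0306. It was the 1 gene of the 9 that passed an adjusted p under 0.05 with an absolute log2 fold change above 1, against 5689 of all 21854 genes tested (26%, of which 13.1 percentage points were lower in intra-CNS tumors). The call did not hold, with adjusted p from 0.0695 to 0.0725, when any 1 of the intra-CNS tumors of 38594A, 29050A, R26P98 and R26P87 was left out. It was also lost with the naming of the mice as a covariate (-3.13, adjusted p = 0.0664), with limma (adjusted p = 0.0720 on log2(TPM + 1) and 0.0562 on log2(TPM + 0.1)), with intracranial tumors alone (0.0624) and with tumors induced at E6 (0.101). The other 8 genes had log2 fold changes from -6.45 (Kcne2) to -4.20 (Prlr) with adjusted p from 0.115 to 0.381. The median over the 9 genes was -4.89, and over all genes -0.15. Standard errors of these 8 were 2.62 to 4.37, and R26P115 lay in the extra-CNS group.

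Without R26P115 the direction of these 8 genes turned. Their log2 fold changes were then all positive, from 1.53 (Kcne2) to 11.94 (Ttr), and 6 of the 9 genes passed the threshold, 5 higher and 1 lower in intra-CNS tumors, against 30.5% of all genes. That fit still held 29048, one of the tumors on which the genes were chosen, so its fold changes and its count are a description from which nothing is read. Without 29048 as well, Ttr went from 11.94 to 2.73, Kcnj13 from 4.32 to 1.40 and Prlr from 3.16 to 1.87.

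The choice of the genes set R26P115 and 29048 against the other 14 tumors as a whole and did not use the location of these 14. Among the 14, Enpp2 and Kl were higher and Aqp1 was lower in the 4 intra-CNS than in the 10 extra-CNS tumors. The log2(TPM + 1) of Enpp2 was 6.43 ± 1.21 (SD, n = 4) against 2.58 ± 1.08 (SD, n = 10), and edgeR gave a log2 fold change of 3.45 ± 0.66 (SE, adjusted p = 0.00126). Kl was at 0.98 ± 0.36 (SD, n = 4) against 0.15 ± 0.18 (SD, n = 10), with 2.67 ± 0.89 (SE, adjusted p = 0.0313) from edgeR, and 4 of these 10 extra-CNS tumors had no more than 3 counts. Aqp1 was at 1.73 ± 0.30 (SD, n = 4) against 4.39 ± 1.85 (SD, n = 10), with -4.49 ± 1.11 (SE, adjusted p = 0.00628) from edgeR. The 3 of 9 genes past the threshold (33.3%) stand beside 27.1% of the 21700 genes tested, a share near that background. The other 6 did not pass in edgeR, with Ttr at 2.73 (adjusted p = 0.0885), Prlr at 1.87, Kcnj13 at 1.40, Kcne2 at -0.77, Folr1 at -1.43 and Clic6 at -1.49.

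**Figure D2:**
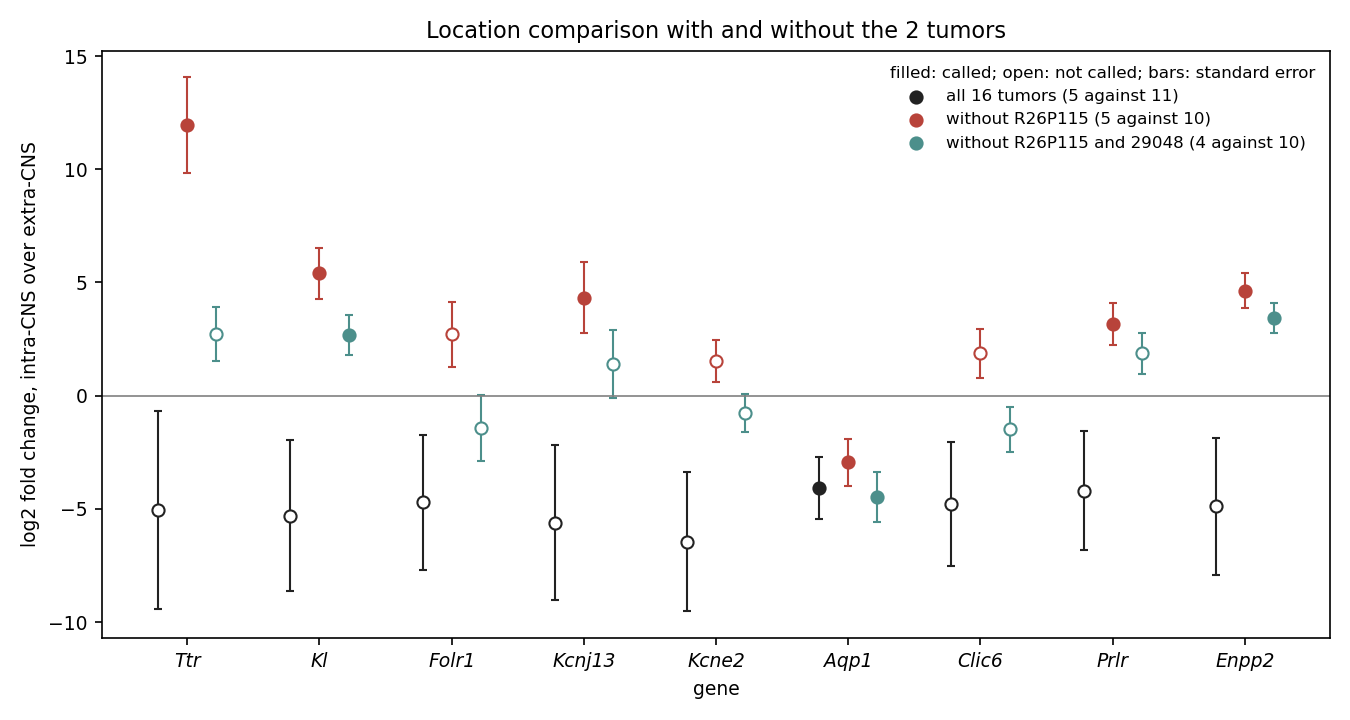
Log2 fold change of intra-CNS over extra-CNS tumors for each choroid plexus gene in edgeR fits with all 16 tumors, without R26P115, and without R26P115 and 29048. Bars are standard errors and filled points passed the threshold. Aqp1 is below 0 in all 3 fits, Enpp2 and Kl turn from -4.89 and -5.30 to 3.45 and 2.67, and Folr1, Kcne2 and Clic6 are above 0 only in the fit without R26P115.

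These differences were repeated within the schemes of mouse names as differences of means of log2(TPM + 1), again without R26P115 and 29048. For Enpp2 the difference of intra-CNS and extra-CNS tumors was 3.54 among numbered mice (2 against 8 tumors) and 4.53 among R26P mice (2 against 2). For Aqp1 it was -2.56 and -3.71, and for Kl 0.98 and 0.71. For Enpp2 no intra-CNS tumor overlapped these extra-CNS tumors on TPM, so any split gives the same direction on that scale. On TMM-normalized CPM the intra-CNS tumor of 29050A (33.3) lay below the extracranial tumor of 43998A (42.9). Of the other 6 genes, Ttr (1.71 and 0.29) and Kcnj13 (0.41 and 0.08) had 1 direction in both, and Folr1 (0.27 and -1.27), Clic6 (0.30 and -1.91), Prlr (0.64 and -0.05) and Kcne2 (0.14 and -0.24) had opposite ones. Every intra-CNS tumor had been induced at E6, so that location and day can be separated only through the 2 extra-CNS tumors induced at E6. With these alone the differences were 4.48 for Enpp2, -3.21 for Aqp1 and 0.91 for Kl (4 against 2 tumors).

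The second comparison asked whether the genes differed between intracranial and extracranial tumors outside the brain. The 6 intracranial tumors include R26P115, so the values of the 9 genes in the fit of 6 against 5 tumors are again a description. None of the 9 passed the threshold in edgeR's quasi-likelihood test (adjusted p from 0.346 to 0.825, 8 of the 9 with an unadjusted p under 0.05). Of all 21261 genes tested, 1 passed (0.00470%) and 2606 had an unadjusted p under 0.05. DESeq2 gave none of the 9 an adjusted p, and limma on log2(TPM + 1) called none of them. Without R26P115, 0 of 9 genes passed against 0 of 21120 genes (0%), with 1 of the 9 (Ttr) and 2369 of all genes at an unadjusted p under 0.05.

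The tables hold many other genes of the choroid plexus, listed here by what they do. Over 4 lists with 62 genes, R26P115 had the highest level of the 16 tumors for 43, and for 28 of them it was over 4-fold above the highest of the 14 tumors. The background shares over all genes were 8.37% and 1.72%. The 29048 tumor was above each of the 14 tumors for 19 of the 62 genes (background 17.5%), and over 4-fold above them together with R26P115 for 4 (background 0.179%). The median level in R26P115 was 12.6 times that in 29048 over the 61 genes above the floor in 29048, a narrower gap than the 44.0 of the 9 genes. These lists were written with the levels of the 9 genes in these tumors known, and the counts are a description.

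Among 21 transporters and ion channels, 16 were highest in R26P115. The sodium pump subunit Atp1b1 was at 1929 TPM in R26P115 and 2061 TPM in 29048, but also at 1987 TPM in the intra-CNS tumor of 38594A. Car12, a carbonic anhydrase, was at 1131 TPM in R26P115, 21.3 TPM in 29048 and at most 46.1 TPM elsewhere, and the calcium pump Atp2b3 at 734.9, 65.1 and at most 28.6 TPM. Car2, another carbonic anhydrase, was at 693.5 and 276.9 TPM in these tumors but at 1161 TPM in the extracranial tumor of 43987A. Slc4a10, a sodium bicarbonate transporter of the choroid plexus, was at 537.6 TPM in R26P115, 91.8 TPM in 29048 and at most 42.1 TPM in the 14 tumors. Of the 21 genes, 0 were higher and 4 lower in intra-CNS tumors in the fit of all 16, and 5 were higher and 3 lower among the 14. Of all genes, 12.9% were higher and 13.1% lower in the first fit, and 14.2% and 12.9% in the second.

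Of 20 secreted and receptor genes, 18 were highest in R26P115. The highest were 1500015O10Rik, which encodes the secreted peptide augurin, at 3001 TPM, the insulin-like growth factor binding protein gene Igfbp2 at 2764 TPM and the growth factor gene Igf2 at 1426 TPM. In 29048 these 3 were at 145.8, 99.3 and 243.4 TPM, and Vat1l was at 904.8 TPM in R26P115 and 122.9 TPM in 29048. The highest of the 14 tumors had 303.7 TPM of 1500015O10Rik (R26P98, intra-CNS), 65.8 TPM of Igfbp2 and 1158 TPM of Igf2. Igfbp2 was thus high in both tumors relative to the others, whereas 29048 lay within the range of the 14 for Igf2 and 1500015O10Rik. Of the 20 genes, 0 were higher and 1 lower among 16 tumors, and 3 higher and 2 lower among the 14, beside shares of all genes of 12.9% and 13.1%, then 14.2% and 12.9%.

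Of 10 genes of epithelial junctions and keratins, 4 were highest in R26P115. Cldn2, the claudin of the leaky tight junctions of the choroid plexus, was at 481.1 TPM in R26P115, 11.4 TPM in 29048 and at most 1.86 TPM elsewhere. Spint2, a protease inhibitor of epithelia, was at 672.8, 33.5 and at most 133.0 TPM. Not every gene of the list was highest there. Ezr, which links membrane and cytoskeleton, was at 684.5 TPM in R26P115 and 1351 TPM in R26P98, and the adhesion molecule Epcam was at 3.49 TPM in R26P115, 39.3 TPM in 29048 and 523.2 TPM in R26P98. Of the 10 genes, 1 was higher and 3 were lower in intra-CNS tumors among 16, and 1 higher and 2 lower among the 14 (all genes 12.9% and 13.1%, then 14.2% and 12.9%).

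Of 11 transcription factors of the choroid plexus and roof plate, 5 were highest in R26P115. After Otx2 the highest there were Msx1, a homeobox gene of the roof plate, at 252.8 TPM and Foxj1, the regulator of motile cilia, at 166.0 TPM. Foxj1 was at 46.8 TPM in 29048 and at most 21.7 TPM in the 14 tumors, while Msx1 was at 16.5 TPM in 29048 and up to 210.5 TPM in R26P87. Zic1, a zinc finger gene of the dorsal neural tube, was at 105.0 TPM in R26P115, 190.3 TPM in 29048 and up to 439.4 TPM in R26P87. In the fit of all 16 tumors 1 of the 11 genes was higher in intra-CNS tumors and 2 were lower, against 12.9% and 13.1% of all genes. Among the 14 tumors 4 were higher and 1 was lower, against 14.2% and 12.9%. Otx2 was one of those 4, with a log2 fold change of 10.88 ± 1.03 (SE, edgeR, adjusted p = 7.5e-06).

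**Figure D3:**
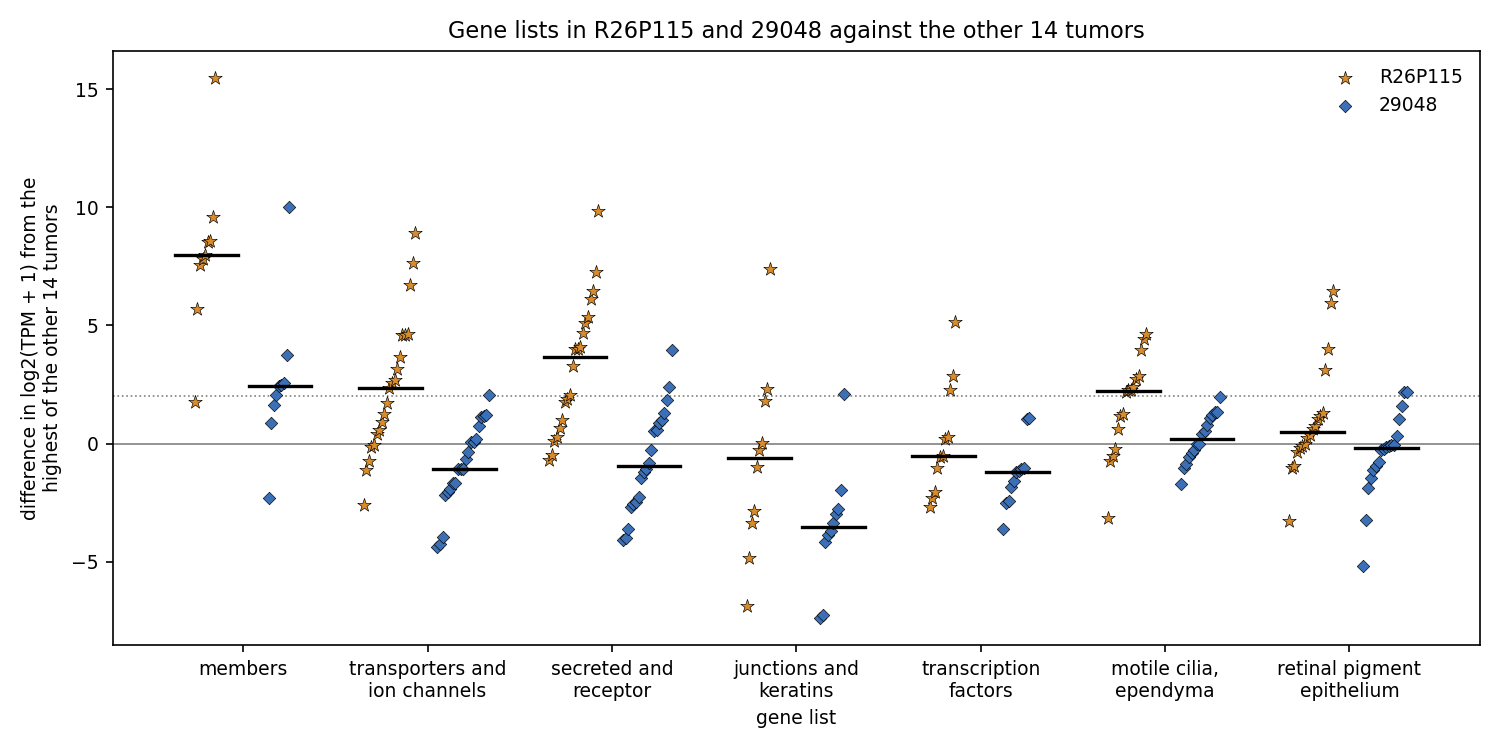
Difference in log2(TPM + 1) between R26P115 (stars) or 29048 (diamonds) and the highest of the other 14 tumors, 1 symbol per gene, for the 9 choroid plexus genes (members), 5 further lists and the retinal pigment epithelium. Black lines are medians and the dotted line marks 4-fold. The median of the 9 genes is 7.98 in R26P115 and 2.45 in 29048, and the medians of the transporter and secreted lists are 2.37 and 3.64 in R26P115 but below 0 in 29048.

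Motile cilia are a further feature of the choroid plexus, shared with the ependyma. Of 16 genes of motile cilia and ependyma, 12 were highest in R26P115 (8.37% of all genes), led by the dynein light chain gene Dynlrb2 (205.2 TPM), Cfap126 (185.3 TPM) and Rsph1 (181.8 TPM). In 29048 these 3 were at 22.6, 17.6 and 18.9 TPM. Dynlrb2 reached 41.5 TPM in the intra-CNS tumor of R26P87, whereas Cfap126 and Rsph1 were at most 6.39 and 7.51 TPM in the 14 tumors. In the location comparison 2 of the 16 genes were higher in intra-CNS tumors among all 16 tumors (12.9% of all genes were higher). Without R26P115 this was so for 12 of the 16 (16.4% of all genes), and without 29048 as well again for 12 (14.2% of all genes). The median log2 fold change of the list among the 14 tumors was 3.06, beside -0.13 over all genes. Foxj1, which stands in both lists, was at 2.57 ± 0.68 (SE, adjusted p = 0.00913, edgeR) in that fit. Rarres2 and Mia, secreted proteins on the same list, were at 30.7 and 159.3 TPM in R26P115 and at 52.8 and 30.6 TPM in 29048.

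Genes of other tissues that share some of these genes were read beside them. Of 18 genes of the retinal pigment epithelium, another epithelium that makes Ttr, Kcnj13 and Enpp2, 9 were highest in R26P115 (8.37% of all genes). These included Rdh5 (422.9 TPM) and the lactate transporter gene Slc16a8 (95.6 TPM), while Stra6, the receptor of retinol binding protein, was at 138.3 TPM there and 268.5 TPM in 43990A. Gpnmb, a gene of pigment cells and macrophages, was at 71.6 TPM and Rlbp1, the cellular retinal binding protein gene, at 6.95 TPM there. Of the other pigment cell genes, Oca2 (66.1 TPM), Mitf (60.4 TPM), Dct (11.1 TPM), Mlana (3.36 TPM), Pmel (2.74 TPM) and Tyr (0.241 TPM) were highest in R26P115 of the 16 tumors, whereas Tyrp1 (0.826 TPM), Slc45a2 (0.122 TPM) and Trpm1 (0 TPM) were not. The genes of the visual cycle differed there, since Rdh5 was the highest of the 18 listed genes, while Rpe65 was at 0.148 TPM, Lrat at 0.613 TPM and Rgr at 0 TPM. In R26P115, 4 of the 18 genes were over 4-fold above the highest of the 14 tumors (1.72% of all genes). Rdh5, one of these 4, stands also in the list of secreted and receptor genes above, and these counts are a description. The 10 genes of kidney tubule and stomach, where Kl and Kcne2 are also made, summed to 2.65 TPM in R26P115, 3.77 TPM in 29048 and 0.715 to 5.30 TPM in the 14 tumors.

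Markers of brain cells separated the 2 tumors. Neuronal genes (10 listed) summed to 43.7 TPM in R26P115 and to 4884 TPM in 29048, against 54.0 to 2747 TPM in the other 14. The sum in 29048 was the highest of the 16 tumors. That in R26P115 was the lowest on TPM, with 43990A next at 54.0 TPM. The 9 choroid plexus genes held 25.4% of TPM in R26P115, so that rank may depend on the scale. Oligodendrocyte genes (10 listed) summed to 102.5 TPM in R26P115 and 7354 TPM in 29048, against 43.2 to 191 TPM in the 14 tumors. In 29048 all 10 were over 4-fold above the 14 tumors (1.11% of all genes). Among them the myelin genes Mbp and Mobp were at 1971 and 761.6 TPM in 29048. In R26P115 they were at 35.5 and 2.46 TPM. Astrocyte genes (7 listed) summed to 2285 TPM in 29048, 176.8 TPM in R26P115 and at most 974.3 TPM in the 14 tumors. Of the 7, only Aldh1l1 was over 4-fold above the 14 tumors in R26P115, against 4 of the 7 in 29048. It was at 84.9 TPM in R26P115, 93.5 TPM in 29048 and at most 18.9 TPM in the 14. The choroid plexus genes of 29048 thus stood beside high summed markers of mature brain tissue. Those of R26P115 did not, with Aldh1l1 as an exception. The part of such tissue in the levels of the 9 genes in 29048 was not tested.

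Of the other lists, meningeal fibroblast genes (10 listed) summed to 2924 TPM in R26P115 and 1629 TPM in 29048. Most of that was Ptgds, a prostaglandin synthase that the choroid plexus also makes, at 2540 and 1497 TPM. Macrophage and microglial genes (9 listed) summed to 619.2 TPM in R26P115 and 713.9 TPM in 29048, inside the range of 554.2 to 6374 TPM of the 14 tumors. Pituitary genes (8 listed) summed to 93.6 TPM in R26P115 and 7.38 TPM in 29048, against up to 425 TPM in 43989C. Of the 93.6 TPM, 88.0 TPM were Lhb, with the hormone genes Gh and Prl at 2.32 and 2.85 TPM. Skeletal muscle genes (7 listed) summed to 0.511 and 4.16 TPM, against up to 636.5 TPM in R26P123. None of these lists was highest in R26P115 or in 29048.

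**Figure D4:**
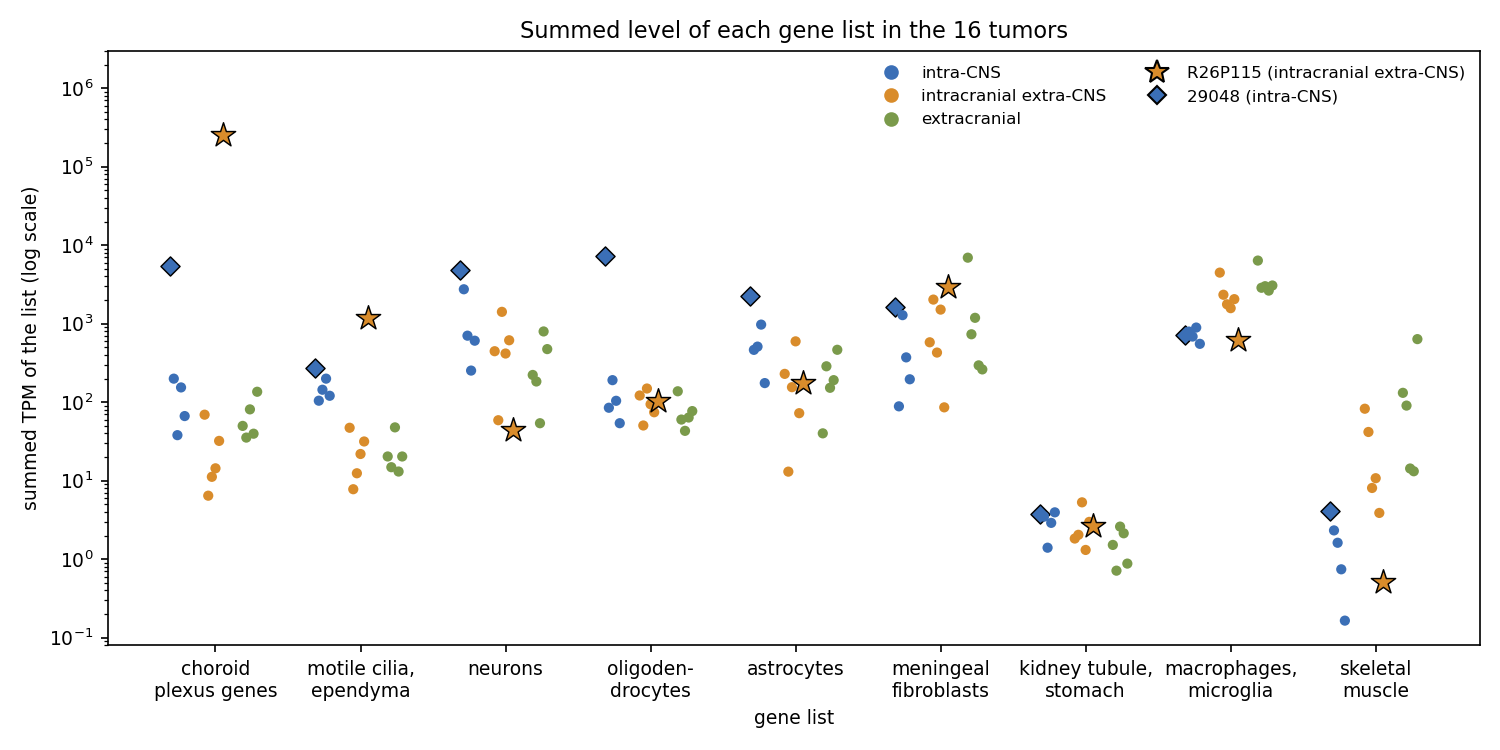
Summed TPM of each gene list in each of the 16 tumors on a log axis, 1 point per tumor, coloured by location and spread sideways for legibility. R26P115 (star) is highest for the 9 choroid plexus genes and the cilia list. On TPM, of which the 9 genes hold 25.4% in this tumor, it is lowest for neurons (43.7 TPM). The tumor of 29048 (diamond) is highest for neurons (4884 TPM), oligodendrocytes (7354 TPM) and astrocytes (2285 TPM).

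Other genes followed the same pattern over the tumors. Over the 14803 genes with 50 or more counts on average, those whose lower value in R26P115 and 29048 exceeded the highest of the 14 tumors by most, on the log2(TPM + 1) scale, were Ttr (10.02), 2900040C04Rik (3.98), Kl (3.75), Maob (3.66), Gm19935 (3.41), Prr32 (3.31), Slc39a12 (3.21), Prkcq (2.94), Ak7 (2.77) and Aifm3 (2.70). Of these, 2900040C04Rik was at 1138 TPM in R26P115, 18.6 TPM in 29048 and at most 0.242 TPM elsewhere, and Maob, a monoamine oxidase gene, at 359.1, 38.9 and at most 2.17 TPM. Their levels in both tumors chose these genes, so the differences are a description. All 9 choroid plexus genes reached the mean of 50 counts over 16 tumors, but 3 of the 9 did so over the 14.

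By rank over the 16 tumors, likeness was the Spearman correlation with the mean z-score of the 9 genes. The closest were Cish (0.87), C2cd2l (0.85), Eln (0.85), Shisa2 (0.81), Epn3 (0.80), Cldn2 (0.80), Klhl29 (0.80), Scnn1a (0.79), Smad9 (0.79) and Ddrgk1 (0.79). The 9 genes themselves had correlations from 0.39 (Aqp1) to 0.72 (Kl) with their own mean. Ranks give the tumors other than R26P115 and 29048 most of the weight, and there Enpp2 and Aqp1 were above the floor in every tumor, whereas each of the other 7 genes was at or under it in at least 2. Over the 14 tumors alone, each member against the mean of the 9 ranged from -0.18 (Aqp1) to 0.73 (Kl). All correlations share the libraries and their depth.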

How the data were processed

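Bulk polyA RNA-seq of 16 tumors was analysed, 1 per mouse. The deposited table of raw counts (24982 genes) was made by the authors by trimming reads with Trim Galore and mapping and counting them with STAR 2.5.3a on mm10. The deposited TPM table (24951 genes) was computed by the authors from such counts and gene lengths. The annotation and strand setting of the counting are not given in the sources used here. The TPM column of 29048 had a header that reads as a number and was matched to its mouse by that name.

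Groups followed tumor location in the labels. The 9 genes and all lists were chosen with earlier results of these data known. Counts were fitted over all genes with at least 1 count by edgeR 4.0.16 (TMM, quasi-likelihood) in R 4.3.3, for 5 intra-CNS against 11 extra-CNS tumors and for 6 intracranial against 5 extracranial extra-CNS tumors. The p-values were adjusted over all genes tested by the Benjamini-Hochberg method, and a gene passed the threshold at an absolute log2 fold change above 1 with an adjusted p under 0.05. The standard errors given with edgeR were derived, as the absolute log2 fold change divided by the square root of the F statistic. R26P115 and 29048 were not averaged or tested as a group against the other tumors, and Dixon's criterion for a single far value was applied within each location. Alternatives were DESeq2 1.42.0, limma 3.58.1 on log2(TPM + 1) or log2(TPM + 0.1), DESeq2 size factors, filterByExpr, no fold threshold, induction day, the naming of the mice as a covariate, intracranial tumors alone, 43990A moved, and leaving out tumors. In simulated counts with 200 changed genes, the first fit found 51.5% of 4-fold and 66% of 8-fold changes, and the second 27% and 66.5%. By a rule the text could name the 9 genes, Otx2, Smarcb1, the 3 genes of each list highest in R26P115 and the 3 highest in 29048, and the 10 genes most alike by each of 2 measures. Dct, Lrat, Mitf, Mlana, Oca2, Pmel, Rgr, Rpe65, Slc45a2, Trpm1, Tyr and Tyrp1 (retinal pigment epithelium) and the genes overlapping or lying between members were named outside it, after their values were seen. Positions are from GENCODE vM21 and promoters from RefSeq. Intervals and floors (3 counts) cover counting error only.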

Additional observations from a re-analysis of the deposited data

Results flagged for a closer look

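Of 33 groups of 5 or 6 tumors tested for a tumor far from the rest (the 9 choroid plexus genes, Otx2 and Smarcb1, in 3 locations, on log2(TPM + 1)), 20 held one. Chance marks about 1 in 20 groups where values are normally distributed, which they are not in groups of mostly zero counts. In the extracranial group 4 of 5 tumors had no count of Ttr, and 4 of 5 none of Kcnj13, so the 1 other tumor is marked whatever its level. The rate also says nothing of the 9 choroid plexus genes in R26P115 or 29048, since they were chosen for being high in these tumors. In the intracranial extra-CNS group R26P115 stood apart for Ttr (17.61), Enpp2 (15.55), Kl (10.79), Clic6 (10.26), Folr1 (10.20), Kcne2 (10.18), Kcnj13 (9.57), Otx2 (8.60) and Prlr (6.96). In the intra-CNS group 29048 stood apart for Ttr (12.15), Folr1 (5.08), Clic6 (5.02), Kl (4.95), Aqp1 (4.69) and Kcnj13 (3.52). These values are a description. In the extracranial group 43990A stood apart for Kcne2 (1.59), Otx2 (0.77), Kl (0.57) and Kcnj13 (0.44), all low levels, and this is the tumor for which labels and study give different sites. R26P123 stood apart for Ttr at 0.08, which was 1 count. The causes were not tested.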

How the results depend on the processing

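No paired analysis was possible because the tumors came from different mice, with 1 tumor per mouse. In the comparison of intra-CNS and extra-CNS tumors, 3533 genes passed the threshold with tumors induced at E6 alone, against 5689 with all, and leaving out 1 tumor at a time gave 4766 to 6649. Of the 9 choroid plexus genes, 0 passed with limma on log2(TPM + 1), limma on log2(TPM + 0.1), the naming of the mice as a covariate or intracranial tumors alone, 1 passed with tumors induced at E6 (Enpp2, higher in intra-CNS tumors, adjusted p = 0.0414, edgeR), 3 passed without R26P115 and 29048, and 0 to 6 passed with 1 tumor left out. Each of these fits, except that without R26P115 and 29048, holds at least 1 of the tumors that chose the genes. Its values for the 9 genes are therefore a description from which nothing is read, and the fit with tumors induced at E6 holds 29048. Aqp1 had a negative fold change under all these settings, with adjusted p from 0.000328 (DESeq2) to 0.101 (tumors induced at E6). The other 8 genes turned from negative to positive under several. DESeq2, which gave these 8 no adjusted p, had log2 fold changes of 11.80 for Ttr, 5.29 for Kl, 2.85 for Folr1, 4.39 for Kcnj13, 1.65 for Kcne2, 1.97 for Clic6, 3.22 for Prlr and 4.42 for Enpp2. It was run with its default handling of outlier counts. These values lay near those of edgeR without R26P115 (11.94 for Ttr, 5.40 for Kl, 4.32 for Kcnj13 and 1.53 for Kcne2). How far that handling set aside the counts of R26P115 was not tested. Limma on log2(TPM + 1) gave 1.59 for Ttr, 0.66 for Kl, 0.03 for Prlr and 3.31 for Enpp2, and on log2(TPM + 0.1) 3.10 for Ttr, 2.26 for Kl, 0.19 for Folr1, 0.74 for Kcnj13, 0.72 for Prlr and 3.59 for Enpp2. With the naming of the mice as a covariate, Ttr was at 11.10, Kl 4.71, Folr1 3.85, Kcnj13 3.39, Kcne2 0.84, Clic6 2.47, Prlr 2.69 and Enpp2 3.76. With tumors induced at E6, Ttr was at 12.88, Kl 6.37, Folr1 0.80, Kcnj13 9.36, Kcne2 1.86, Clic6 1.21, Prlr 3.19 and Enpp2 5.77. That fit leaves out R26P115 but holds 29048, whose levels also chose the genes. Without R26P115 and 29048, Ttr was at 2.73, Kl 2.67, Kcnj13 1.40, Prlr 1.87 and Enpp2 3.45. Leaving out 1 tumor at a time gave -14.18 to 11.94 for Ttr, -8.03 to 5.40 for Kl, -8.79 to 2.70 for Folr1, -8.44 to 4.32 for Kcnj13, -8.74 to 1.53 for Kcne2, -8.13 to 1.87 for Clic6, -5.49 to 3.16 for Prlr, -6.08 to 4.63 for Enpp2 and -5.60 to -2.95 for Aqp1. Among these, only leaving out R26P115 turned a direction. For intracranial against extracranial tumors, 490 genes passed with DESeq2, 2 with limma on log2(TPM + 0.1), 0 without R26P115 and 29048, 0 with tumors induced at E8 and 0 to 3 with 1 tumor left out, against 1 with all 11. None of these settings called any of the 9 genes. Moving 43990A leaves the first comparison as it is, since both of its sites are extra-CNS. Levels near the floor of 3 counts limit what the 14 tumors can show for Ttr, Kcnj13, Folr1 and Kl.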

Other observations

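Kcne2 and Clic6, channel genes with 1160 and 1227 TPM in R26P115, lie on the same strand of chromosome 16. Between the end of Kcne2 and the start of Clic6 lie 187606 bases, with 6 genes of the count table wholly inside that stretch. Smim11 was at 98.9 TPM in R26P115 and 64.7 to 150.04 TPM in the 14 tumors other than R26P115 and 29048. Rcan1, an inhibitor of calcineurin, was at 52.7 TPM in R26P115 and 15.5 to 508.4 TPM in the 14. Both had rank 7 of the 16 tumors in R26P115. The other 4 were low, with Gm29805 at 2.32 TPM, 1700048M11Rik at 0.942 TPM and Fam243 at 0.884 TPM in R26P115, each the highest of the 16 tumors, and Kcne1, which encodes another potassium channel subunit, at 0.171 TPM. Outside the stretch, Mrps6 on the Kcne2 side was at 328.0 TPM in R26P115 (66.0 to 613.9 TPM in the 14) and Runx1 on the Clic6 side at 1.84 TPM (0.990 to 26.6 TPM). The neighbours were chosen by position after the levels of Kcne2 and Clic6 were known.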
